A study of Homo sapiens with 15 samples.

Results

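The mitochondrial respiratory chain genes are the nuclear genes for the subunits of complexes I to V, the enzymes of oxidative phosphorylation. They were chosen by symbol from the deposited expression table: NDUFA, NDUFB, NDUFC, NDUFS or NDUFV followed by a digit, NDUFAB1, UQCR, COX4 to COX8, ATP5, and SDHA, SDHB, SDHC and SDHD, leaving out symbols with a hyphen or ending as a pseudogene. The rule gave 87 of the 33158 genes in the table: 39 in complex I, 4 in complex II, 9 in complex III, 17 in complex IV and 18 in complex V. Complexes were assigned by the symbol's prefix. By this rule NDUFA4 stands with complex I, although its protein is now regarded as a subunit of complex IV.

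The study asked which genes mark cancer stem cells (CSCs) of triple negative breast cancer, a class of tumors without estrogen receptor, progesterone receptor and HER2 amplification. Messenger RNA was sequenced in 15 libraries from 3 established human lines, SUM149 (also written SUM149PT), HCC1937 and SUM159 (SUM159PT), and the values were FPKM, fragments per kilobase of transcript per 10⁶ mapped. SUM149 and HCC1937 cells were sorted into CSC (CD44+/CD24-/low) and non-CSC fractions, with 3 libraries each, whereas the 3 SUM159 libraries were labelled as cancer stem cells and came from unsorted cells. The labels did not say whether replicates were separate cultures, so p-values measured only the spread between libraries.

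Electrons enter the chain at complex I (NADH dehydrogenase) and complex II (succinate dehydrogenase), pass through ubiquinone to complex III (cytochrome bc1) and through cytochrome c to complex IV (cytochrome c oxidase), where oxygen is reduced. Complexes I, III and IV pump protons across the inner mitochondrial membrane, and complex V (ATP synthase) uses the gradient to make ATP. Complexes I, III, IV and V also hold subunits encoded by mitochondrial DNA, which were not analysed here, and the symbol rule leaves out CYC1, a nuclear gene of complex III. Tumor cells differ widely in how far they rely on oxidative phosphorylation or on glycolysis.

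The sorted fractions carried the surface markers of their gate. CD24 was 7.97, 7.64 and 7.61 FPKM in the SUM149 CSC libraries and 147, 137 and 134 FPKM in the non-CSC libraries. In HCC1937 it was 23.6, 22.5 and 23.9 FPKM in CSC and 167, 141 and 142 FPKM in non-CSC, so neither line's fractions overlapped. CD44 differed less, with 83.4, 82.9 and 86.8 FPKM in SUM149 CSC against 67, 65.3 and 61.4 FPKM in non-CSC, and with overlapping values in HCC1937 (113, 100 and 106 against 96.0, 95.1 and 102 FPKM). All 10 epithelial markers tested were lower in the CSC fraction of each line, and 7 of 8 mesenchymal markers were higher. The remaining mesenchymal marker was lower in SUM149, and in HCC1937 the remaining one was not called. SUM159 had a CD24 level of 0.759, 0.682 and 0.745 FPKM, with CD44 at 28.6, 29.4 and 28.4 FPKM. Markers of other cell types were checked as well. Of 6 fibroblast genes tested in SUM149, 4 were higher and 2 lower in CSC, with a summed level of 242, 244 and 239 FPKM in CSC and 67.4, 68.9 and 71.0 FPKM in non-CSC, mostly from COL1A1, a collagen that mesenchymal tumor cells also express. In HCC1937 2 of 3 were higher, with sums of 12.5, 12.8 and 11.8 FPKM in CSC against 6.12, 7.29 and 7.84 FPKM.

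Of 7 leukocyte genes 2, CD14 and CD68, were high enough to be tested. Both were lower in SUM149 CSC, with a summed level of the list of 19.1, 19.3 and 18.2 FPKM against 101, 95.6 and 103 FPKM. In HCC1937 1 was higher, and the sums were 108, 107 and 93.6 FPKM in CSC against 71.0, 72.6 and 67.6 FPKM. CD14 was the most abundant of the list in HCC1937 CSC and SUM149 non-CSC, while CD3E was listed at 0 in all 15 libraries and PTPRC did not exceed 0.0986 FPKM. Endothelial genes, 3 of 3 tested lower in SUM149 CSC and 1 of 2 in HCC1937, summed to at most 1.83 FPKM in any library, with PECAM1 the most abundant in CSC. The part of these marker genes in the results below was not tested.

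Of the 87 genes, 79 averaged 1 FPKM or more across the 15 libraries, and the same number entered each test at the main settings. After upper quartile scaling or quantile normalization 80 entered the SUM159 comparisons. Another 6 of the 87 were listed at 0 in every library: COX4I2, COX6A2, COX7A1, COX8C, NDUFA3 and NDUFA6. The first 4 of these encode tissue isoforms, of lung (COX4I2), heart and muscle (COX6A2, COX7A1) and testis (COX8C). NDUFA3 and NDUFA6 are widely expressed subunits, and SLC25A6, an ATP/ADP carrier, was listed at 0 as well, so a 0 in this table need not mean that the gene was silent. COX7B2, an isoform of COX7B, reached 0.314 FPKM in 1 SUM159 library, and ATP5L2, a copy of ATP5L, reached 0.19 FPKM in 1 SUM149 CSC library. The depth of the libraries could not be read from FPKM values and was unknown.

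The members' summed FPKM was first taken as a share of each library's total. It was 1.44%, 1.59% and 1.51% in SUM149 CSC and 1.55%, 1.43% and 1.69% in SUM149 non-CSC, which overlapped. HCC1937 CSC libraries had 2.72%, 2.64% and 2.42%, and HCC1937 non-CSC libraries 2.71%, 2.73% and 2.53%. SUM159 had 2.65%, 2.59% and 2.59%. Every SUM149 library was thus below every HCC1937 and SUM159 library, and the fractions of a line overlapped. The same held for complexes I, III, IV and V. Complex I took 0.383% ± 0.0193 (SD, n = 3) of the total in SUM149 CSC, 0.860% ± 0.0631 in HCC1937 CSC and 0.715% ± 0.0306 in SUM159. Complex II, the smallest enzyme, went another way: 0.0418% ± 0.00132 in SUM149 CSC, 0.0591% ± 0.00181 in HCC1937 CSC and 0.0345% ± 0.00124 in SUM159, which was lowest. Its summed FPKM was instead highest in SUM159, with a mean of 222 against 190 in HCC1937 CSC and 127 in SUM149 CSC. Library totals were 634746 to 652082 FPKM in SUM159 and 291276 to 366532 FPKM in the sorted libraries, so the order depended on the scale. In SUM149 non-CSC complex II took 0.0461% ± 0.00218, and the libraries (0.0442% to 0.0485%) were above those of CSC (0.0404% to 0.0431%). Complex III took 0.176% ± 0.00762, 0.216% ± 0.0207 and 0.257% ± 0.00936 in the same groups.

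**Figure D1:**
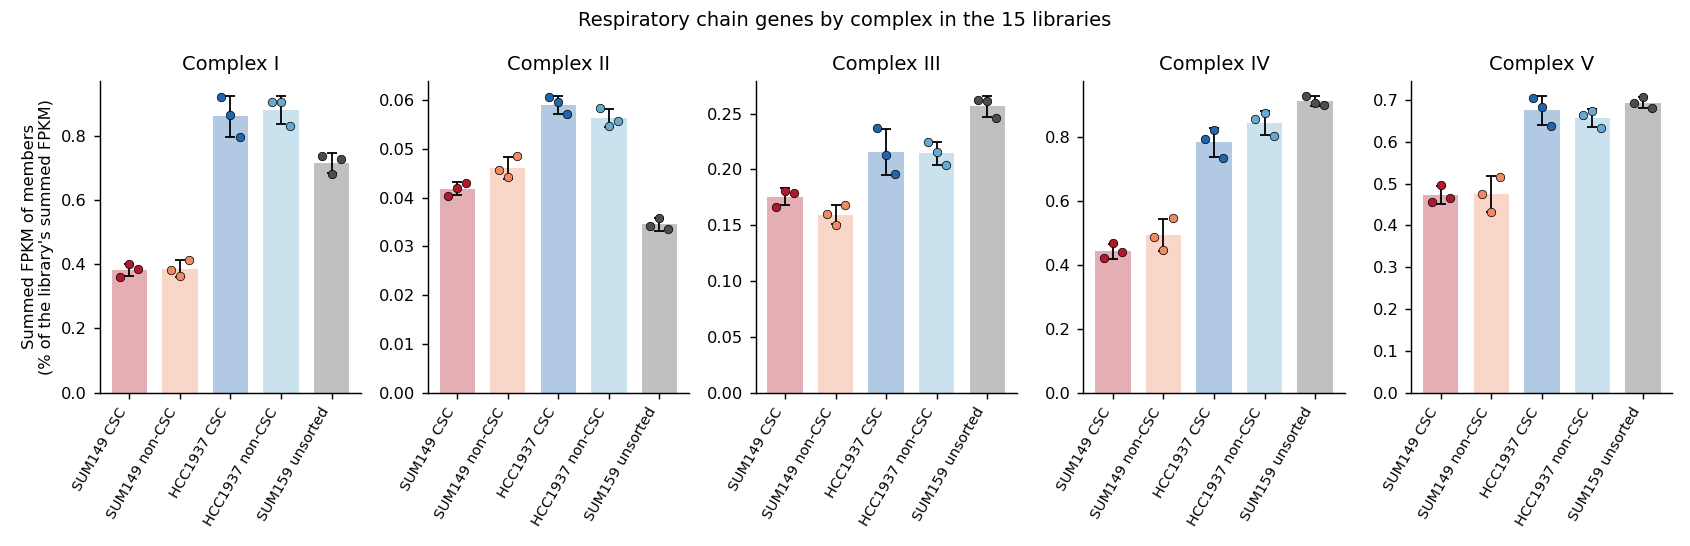
Summed FPKM of the members of each complex as a percentage of the library's summed FPKM (vertical axis, scaled for each complex) in the 5 groups; points are libraries, bars are means and error bars are SD of 3 libraries. SUM149 was lowest for complex IV, with a mean of 0.442% in CSC and 0.492% in non-CSC, against 0.783% in HCC1937 CSC and 0.911% in SUM159.

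Within a complex the levels per length of transcript differed widely. COX8A, a small subunit of complex IV, was the most abundant complex IV gene in all 5 groups, with a mean of 229 FPKM in SUM149 CSC, 291 in SUM149 non-CSC, 636 in HCC1937 CSC, 693 in HCC1937 non-CSC and 1320 in SUM159. With each library scaled to a common sum COX8A was at 292, 359, 765, 764 and 791 in the same order. Deposited FPKM values are thus not compared between lines here. ATP5E, the epsilon subunit of the ATP synthase head, led complex V in the sorted groups, with 331 FPKM in SUM149 CSC and 668 FPKM in HCC1937 CSC, while ATP5I, a membrane subunit, led it in SUM159 with 832 FPKM. At the low end, UQCRB of complex III had a mean of 3.45 FPKM in SUM149 CSC, and SDHC, a membrane anchor of complex II, 4.16 FPKM. UQCRH and UQCRHL could not be separated, since the latter is a near-identical copy: UQCRH took 52.0%, 50.3%, 48.9%, 49.6% and 51.7% of their sum in the 5 groups, and values of either gene are uncertain.

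In SUM149 the summed share of the members overlapped between CSC and non-CSC, but single subunits differed in either direction. Of the 79 genes tested, 13 were higher and 29 lower in CSC with adjusted p no higher than 0.05, and the 42 calls were spread over all 5 complexes. The largest rises were those of NDUFS6 and ATP5G2, and the largest fall was that of the testis isoform COX6B2. Among all 16037 genes tested, 33.3% were called higher and 41.5% lower, beside 16.5% and 36.7% of the members. Their median log2 fold change, on log2(FPKM + 0.1) here and throughout, was -0.12, beside -0.11 over all genes. Under a stricter call, adjusted p no higher than 0.0001 with a log2 fold change of 1 or more in size, 1 member was higher (7.71% of all genes) and 3 were lower (12.8%). The added 0.1 understates the change of genes of low level. In 17 members all CSC libraries were above all non-CSC libraries, in 30 they were below, and in 32 the fractions overlapped, where 35.3% and 43.4% of all genes tested were apart in these directions. The balance of the calls moved with the scaling: after upper quartile scaling 21 were higher and 25 lower (45.7% of calls higher, against 31.0% as deposited), and after quantile normalization 23 and 27 (46.0%). On these scales 36.7% and 41.5% of all genes tested were higher, and 38.5% and 34.1% lower. These scalings moved the median of all genes from -0.11 to -0.03 and 0.11. No called member changed direction, and 38 and 39 of the 42 kept their call. Lower RNA per cell and a smaller share of cells of one kind within a fraction could not be told apart in bulk libraries.

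**Figure D2:**
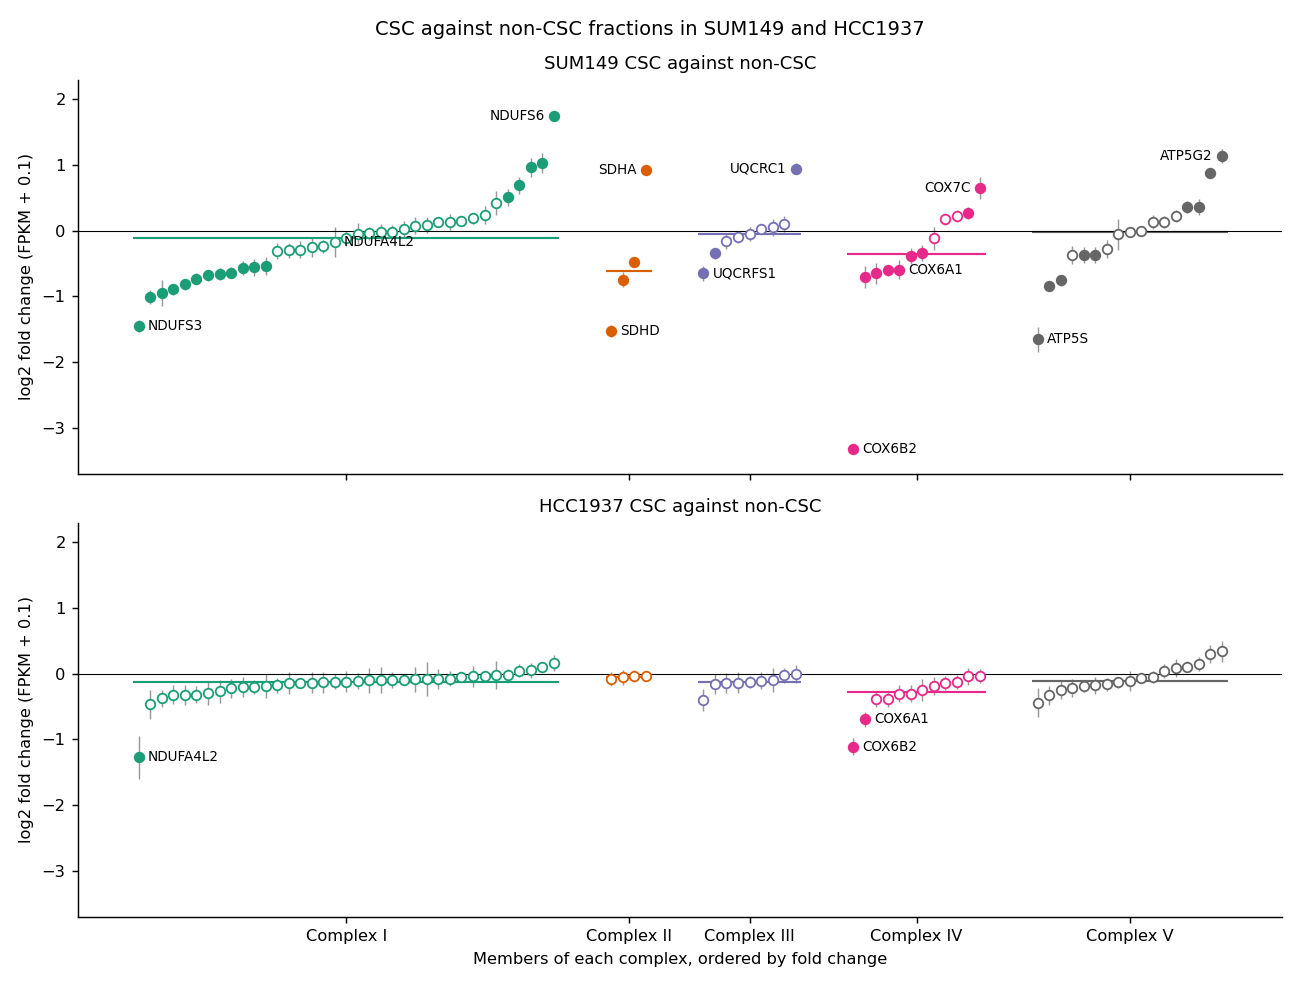
Log2 fold change of CSC against non-CSC for the 79 members tested, by complex and ordered by size, in SUM149 (upper panel) and HCC1937 (lower panel); filled points passed an adjusted p of 0.05, error bars are SE and horizontal bars mark the median of each complex. SUM149 changes ran from -3.32 (COX6B2) to 1.75 (NDUFS6), and HCC1937 changes from -1.27 (NDUFA4L2) to 0.34 (ATP5G1). Medians of complexes I, III and V in SUM149 were -0.12, -0.05 and -0.03, beside -0.11 for all genes. Under quantile normalization they were 0.04, 0.02 and 0.05, below the 0.11 of all genes.

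Complex I had 5 genes higher and 12 lower in SUM149 CSC among 37 tested. The counts were 9 and 12 after upper quartile scaling, 10 and 12 after quantile normalization, 7 and 13 on the common sum and 8 and 13 after GC removal. Of all genes tested 33.5% were higher and 38.9% lower on the common sum, and 39.0% and 39.2% after GC removal. Core subunits carry the flavin and the iron-sulfur clusters. NDUFS3, a core subunit next to the ubiquinone site, was 16.7, 20.5 and 20.4 FPKM in CSC and 53.0, 51.7 and 52.2 FPKM in non-CSC. It was lower in every CSC library, with a log2 fold change of -1.45 (SE 0.10, adjusted p = 4.88e-05). NDUFV1, the flavin-binding subunit that receives electrons from NADH, fell by 0.73 (adjusted p = 0.000373), and NDUFS8, which holds iron-sulfur clusters, fell by 0.68 (adjusted p = 0.000867). NDUFS1, the largest core subunit, did not pass (0.13, adjusted p = 0.123), nor did NDUFS7 (-0.12, adjusted p = 0.39).

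Accessory subunits of complex I moved in both directions. NDUFS6, a zinc-binding subunit of the arm that takes up NADH, was 88.6, 89.8 and 96.7 FPKM in SUM149 CSC and 26.9, 28.1 and 26.4 FPKM in non-CSC. It was higher in all 3 CSC libraries by a log2 fold change of 1.75 (SE 0.06, adjusted p = 6.05e-06), the largest rise among the members. NDUFA4, long counted with complex I, was 15.5, 15.8 and 16.6 FPKM against 8.42, 6.58 and 9.65 FPKM, a rise of 0.97 (SE 0.15, adjusted p = 0.0015) without overlap. Its paralog NDUFA4L2 was near 1 FPKM in both fractions and was not called (-0.18, adjusted p = 0.509), although without CSC replicate 2 it passed (adjusted p = 0.00634). NDUFAB1, the mitochondrial acyl carrier protein, did not pass (-0.03, adjusted p = 0.87). Of the NDUFB and NDUFC subunits, which sit in the membrane arm, 2 of 13 were higher and 2 lower. The NDUFA group, with NDUFAB1 counted in it, had 1 of 13 tested higher, NDUFA4, and 5 lower (median -0.24).

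The 4 genes of complex II were all called in SUM149, in opposite directions. SDHA, the flavoprotein that oxidizes succinate, was 67.2, 74.6 and 72.0 FPKM in CSC and 38.2, 36.5 and 37.7 FPKM in non-CSC. It rose by 0.92 (SE 0.06, adjusted p = 5.48e-05). SDHD, a membrane anchor, was 11.0, 12 and 12.6 FPKM in CSC and 33.8, 31.9 and 37.7 FPKM in non-CSC, a log2 fold change of -1.53 (SE 0.09, adjusted p = 3.19e-05). The other anchor, SDHC, was 4.55, 3.78 and 4.16 FPKM against 5.81, 5.76 and 5.88 FPKM (-0.48, SE 0.08, adjusted p = 0.00236). SDHB, the iron-sulfur subunit, was 35, 42.8 and 40.8 FPKM against 68.9, 58.4 and 71.4 FPKM (-0.74, SE 0.12, adjusted p = 0.0017). No fraction's libraries overlapped for any of these genes, and each kept its direction and its call under the other scalings. The flavoprotein thus exceeded SDHB in SUM149 CSC, at a mean of 71.3 against 39.5 FPKM, and stood below it in non-CSC, at 37.5 against 66.3 FPKM. SDHA has pseudogene copies. Of these SDHAP1 was lower in CSC (a mean of 2.56 against 4.75 FPKM) and SDHAP2 was listed at 0 in every library. SDHAP3 was at very low level in SUM149, with a mean of 0.134 FPKM in CSC and 0.0107 FPKM in non-CSC. How reads were divided between SDHA and these copies was not tested.

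In complex III, 1 of 9 genes was higher and 2 were lower, which turned to 2 and 1 after quantile normalization. UQCRC1, a core protein on the matrix side, was 103, 119 and 111 FPKM in SUM149 CSC and 60.6, 53.2 and 58.7 FPKM in non-CSC. All CSC libraries were higher, by a log2 fold change of 0.95 (SE 0.08, adjusted p = 0.000153). Its partner UQCRC2 did not pass, with 54.6, 58.6 and 56.8 FPKM against 59.2, 53.1 and 54.4 FPKM (0.03, adjusted p = 0.716). UQCRFS1, the Rieske iron-sulfur protein that takes electrons from ubiquinol, was 32.3, 39.7 and 33.5 FPKM against 59.7, 48.5 and 57.3 FPKM, and fell by 0.65 (SE 0.12, adjusted p = 0.00347). The core proteins of one complex were therefore at a ratio near 1 in non-CSC and apart in CSC, where UQCRC1 had a mean of 111 FPKM and UQCRC2 of 56.6 FPKM.

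Complex IV had 2 genes higher and 7 lower of 12 tested, and its median of -0.36 stayed below 0 under every scaling. The calls moved to 4 higher and 5 lower after upper quartile scaling, 4 and 6 after quantile normalization, 4 and 7 on the common sum and 3 and 6 after removal of the GC trend. COX6B2, the testis isoform of a subunit that joins the monomers of the enzyme, was 2.82, 3.35 and 3.13 FPKM in SUM149 CSC and 30.8, 32.4 and 32.2 FPKM in non-CSC. The fractions were far apart, with a log2 fold change of -3.32 (SE 0.08, adjusted p = 2.23e-06), the largest fall among the members. The general isoform COX6B1 did not pass (-0.12, adjusted p = 0.568), and COX6B2 took 22.2% ± 3.50 (SD, n = 3) of the sum of both isoforms in non-CSC but 2.89% ± 0.189 in CSC. COX7C, a small membrane subunit, was 211, 251 and 214 FPKM in CSC and 138, 120 and 178 FPKM in non-CSC, a rise of 0.65 (SE 0.16, adjusted p = 0.0128). COX5A and COX5B, which surround the catalytic core, fell by 0.60 (adjusted p = 0.00108) and by 0.70 (adjusted p = 0.00981). COX6A1 fell by 0.59 (adjusted p = 0.0124) and COX7B by 0.65 (adjusted p = 0.0114). COX4I1, a regulatory subunit that binds ATP, did not pass (0.23, adjusted p = 0.0569), but did without CSC replicate 1 (adjusted p = 0.0226). The calls of COX7A2 (0.27, adjusted p = 0.0353) and COX8A (-0.34, adjusted p = 0.0457) were lost without single libraries. For COX7A2 these were CSC replicates 2 and 3 and each non-CSC replicate (adjusted p from 0.0516 to 0.0994), and for COX8A replicates 1 and 3 of either fraction (0.101 to 0.128). COX8A also lost its call after upper quartile scaling and after GC removal.

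In complex V, 4 of 17 genes tested were higher and 5 lower, a balance that turned to 6 and 3 after upper quartile scaling and 6 and 5 after quantile normalization, with 5 and 6 on the common sum and 4 and 4 after GC removal. ATP5G1, ATP5G2 and ATP5G3 encode the same mature c subunit, the ring that turns as protons pass, and their shares shifted. ATP5G2 was 121, 144 and 130 FPKM in SUM149 CSC and 57.3, 55 and 66.5 FPKM in non-CSC, a log2 fold change of 1.14 (SE 0.10, adjusted p = 0.000178). ATP5G3 was 5.39, 4.89 and 5.60 FPKM against 9.97, 9.26 and 9.31 FPKM (-0.84, SE 0.07, adjusted p = 0.000154). ATP5G2 thus made up 81.0% of the 3 genes' sum in CSC and 66.9% in non-CSC, and ATP5G3 3.28% and 10.7%. ATP5G1 passed (0.36, adjusted p = 0.0387), but not without CSC replicate 2 or 3 or non-CSC replicate 1 or 3 (adjusted p from 0.0561 to 0.108). The catalytic head subunits ATP5A1 (-0.03, adjusted p = 0.693) and ATP5B (-0.00, adjusted p = 0.952) did not pass. ATP5S was 0.207, 0.414 and 0.298 FPKM in CSC and 1.22, 1.15 and 1.08 FPKM in non-CSC (-1.65, SE 0.19, adjusted p = 0.00049), and ATP5SL was 13.7, 14.6 and 13.4 FPKM against 8.11, 7.35 and 7.03 FPKM (0.88, SE 0.08, adjusted p = 0.00014). The proteins of both genes carry the older symbol of the enzyme without being core subunits.

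**Figure D3:**
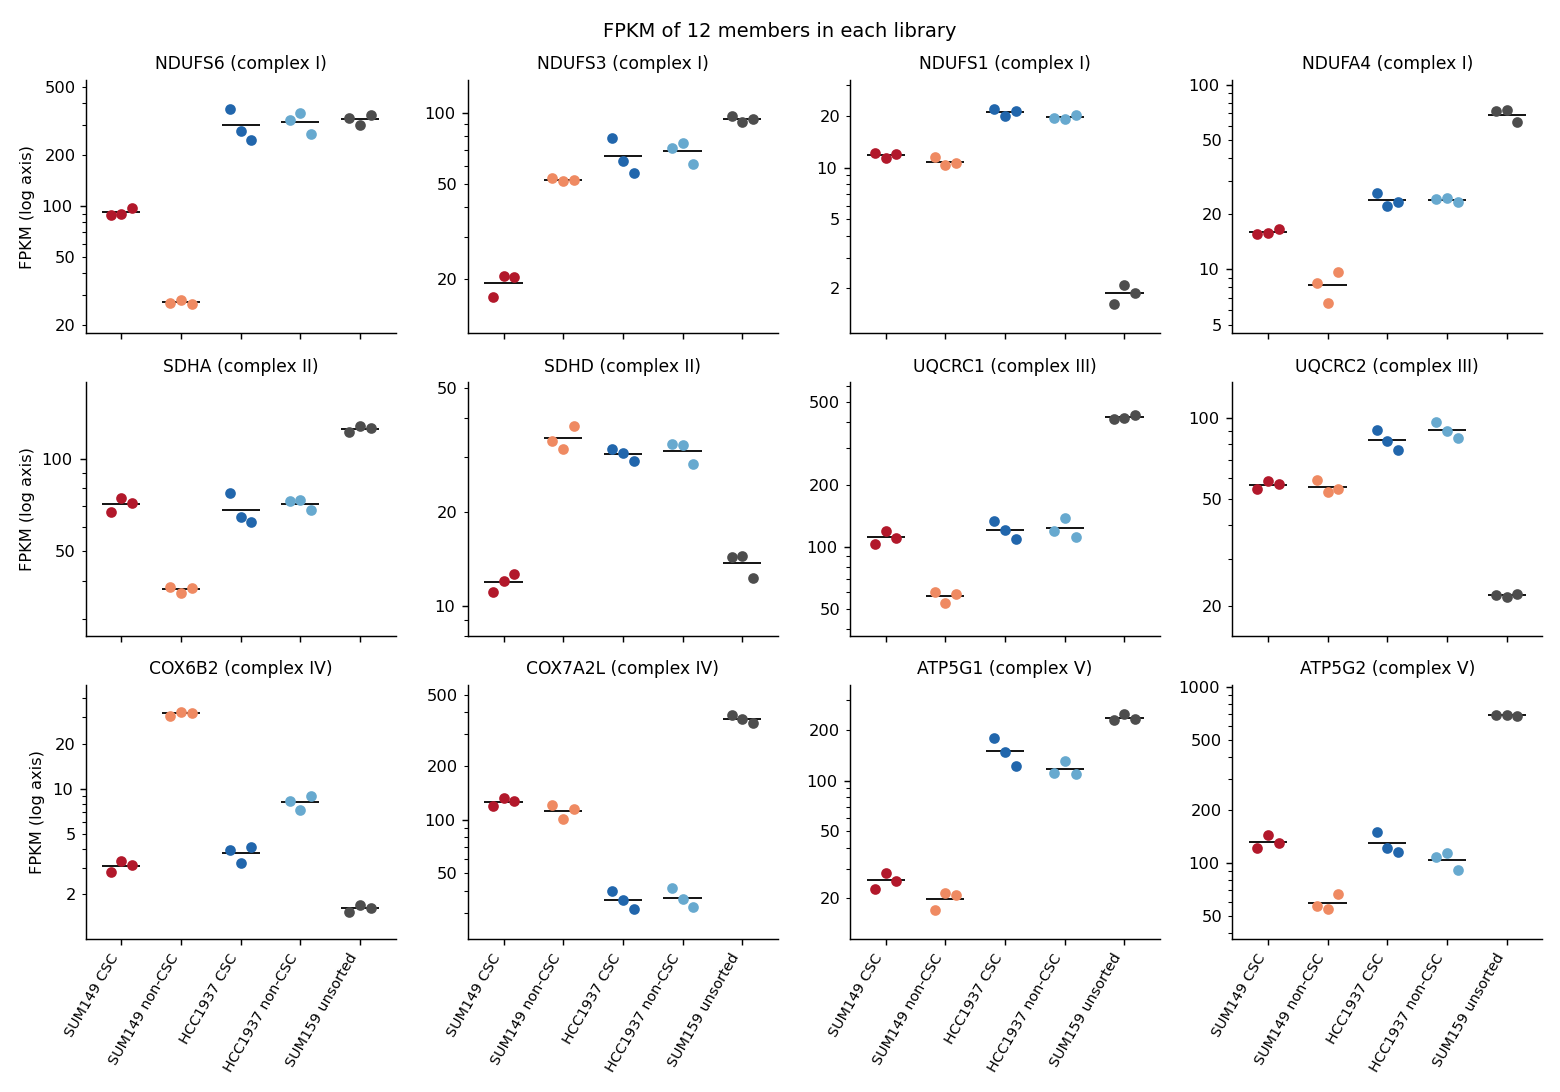
FPKM (log axis, scaled for each gene) of 12 members in the 15 libraries; points are libraries and horizontal bars are group means of 3. SDHD had a mean of 11.9 FPKM in SUM149 CSC and 34.5 in non-CSC, with 30.6 and 31.4 in the HCC1937 fractions, and NDUFS1 had 1.86 FPKM in SUM159 against 11.8 in SUM149 CSC.

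Several members share their locus with another gene, and 40 are overlapped by a protein-coding gene, while the sources did not state whether reads were counted by strand. NDUFS3 shares 8032 bases on the same strand with PTPMT1, which fell in SUM149 CSC as well (a mean of 4.0 against 13.6 FPKM, log2 fold change -1.75). SDHD overlaps TIMM8B by 26 bases on opposite strands, and TIMM8B also fell (2.44 against 7.46 FPKM, -1.57). NDUFC2, a membrane-arm subunit of complex I with a log2 fold change of -1.01 (adjusted p = 0.000416), which was chosen after its values were seen, shares 11562 bases with the readthrough gene NDUFC2-KCTD14, which went the opposite way, from 0.980 FPKM in non-CSC to 5.05 FPKM in CSC. The values of NDUFS3, SDHD and NDUFC2 are uncertain to that extent. These overlapping genes were chosen after the members' values were seen.

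The position of the genes moved with the SUM149 result. On chromosome 5, 367 of 660 genes tested (55.6%) were higher in SUM149 CSC and their median was 0.44, and 4 of the 6 members there were higher: SDHA, NDUFS6, NDUFS4 and COX7C. SDHA and NDUFS6 lie in the first 2 Mb of that chromosome, where 15 of 19 genes tested were higher and 1 was lower, with a median of 1.16. Without the members it was 13 of 17. The same interval had 1 of 21 genes higher in HCC1937, with a median of -0.08. On chromosome 11, 6 of 7 members were lower in SUM149 CSC, SDHD and NDUFS3 among them, and 452 of all 820 genes tested there were lower (median -0.38). The part of position in these calls was not tested, and chromosomes were examined after the members' values were seen.

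Promoters of 5 members called in SUM149, chosen after their values were seen to show both directions, are given for the binding motifs of factors known to regulate respiratory genes. Of the 87 members 68 had a promoter in the RefSeq table (GRCh38.p14), covering 250 bases before and 50 after the start. The NRF1 motif GCGCA, any base, GCGC, was in 16 of the 68 (23.5%) and in 5.78% of all 35116 promoters, the YY1 motif AANATGGCG in 17 (25%, against 3.19%) and the GABPA motif CCGGAAGT in 11 (16.2%, against 4.14%), on either strand. Counted once per symbol, as the members were, the shares of all 27305 symbols were 6.98%, 3.85% and 4.95%. Capitals mark these motifs. SDHA (chr5:218070-218369, plus strand) held 4 NRF1 matches, SDHD (chr11:112086623-112086922, plus strand) 1 for NRF1 and 1 for GABPA, NDUFS6 (chr5:1801157-1801456, plus strand) 1 for YY1, UQCRC1 (chr3:48609597-48609896, minus strand) 1 each for NRF1 and YY1, and COX6B2 (chr19:55354670-55354969, minus strand) none.
SDHA: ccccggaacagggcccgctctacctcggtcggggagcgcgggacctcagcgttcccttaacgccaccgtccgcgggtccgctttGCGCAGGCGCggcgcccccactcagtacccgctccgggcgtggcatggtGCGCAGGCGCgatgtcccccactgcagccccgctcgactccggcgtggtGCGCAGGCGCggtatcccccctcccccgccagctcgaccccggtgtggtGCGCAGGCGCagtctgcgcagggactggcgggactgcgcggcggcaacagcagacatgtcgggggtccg
SDHD: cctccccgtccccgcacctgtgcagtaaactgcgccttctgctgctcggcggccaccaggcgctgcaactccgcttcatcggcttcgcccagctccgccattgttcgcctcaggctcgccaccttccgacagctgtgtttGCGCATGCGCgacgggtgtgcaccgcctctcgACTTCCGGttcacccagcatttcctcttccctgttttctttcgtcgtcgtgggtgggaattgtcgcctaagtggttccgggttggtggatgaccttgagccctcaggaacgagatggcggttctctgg
NDUFS6: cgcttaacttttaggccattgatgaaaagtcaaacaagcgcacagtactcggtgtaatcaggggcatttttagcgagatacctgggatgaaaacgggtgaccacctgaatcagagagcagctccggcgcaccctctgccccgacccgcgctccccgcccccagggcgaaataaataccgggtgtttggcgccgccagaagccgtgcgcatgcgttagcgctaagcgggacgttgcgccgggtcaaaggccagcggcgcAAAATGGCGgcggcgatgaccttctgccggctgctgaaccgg
UQCRC1: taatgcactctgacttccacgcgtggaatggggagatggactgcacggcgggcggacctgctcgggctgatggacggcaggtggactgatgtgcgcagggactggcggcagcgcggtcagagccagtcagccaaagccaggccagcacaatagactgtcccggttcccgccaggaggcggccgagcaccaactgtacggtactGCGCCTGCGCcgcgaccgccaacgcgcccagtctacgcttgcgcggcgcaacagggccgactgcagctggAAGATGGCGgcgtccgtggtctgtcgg
COX6B2: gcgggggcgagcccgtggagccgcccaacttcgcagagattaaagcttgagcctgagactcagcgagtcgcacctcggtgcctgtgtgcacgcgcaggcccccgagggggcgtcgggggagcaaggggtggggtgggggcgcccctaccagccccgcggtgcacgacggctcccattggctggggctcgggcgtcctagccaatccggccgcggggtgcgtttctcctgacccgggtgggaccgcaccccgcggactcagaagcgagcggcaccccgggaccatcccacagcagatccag
SDHA and SDHD, with opposite changes, both matched the NRF1 motif. Among members with a promoter, NRF1 matches were in 2 of 11 called higher, 5 of 20 called lower and 7 of 32 not called in SUM149. YY1 matches were in 3, 8 and 5 of the same groups, and GABPA matches in 0, 5 and 6. A match is a description of the letters in this window and was not tested as a site.

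In HCC1937 the respiratory genes of CSC and non-CSC were close to each other. By limma, 0 of 79 members were higher in CSC (10.3% of all 15582 genes tested) and 3 were lower (15.3%). At an unadjusted p under 0.05 the counts were 0 and 6, beside 16.1% and 21.7% of all genes, and under the stricter call 0 and 0, as for all genes (0% in either direction). The 3 were the isoform COX6B2, the complex IV subunit COX6A1 and NDUFA4L2, a paralog of NDUFA4 known to be induced by hypoxia. COX6B2 was 3.96, 3.22 and 4.09 FPKM in CSC and 8.32, 7.23 and 9.04 FPKM in non-CSC, with a log2 fold change of -1.11 (SE 0.13, adjusted p = 0.00267). COX6A1, a small membrane subunit, was 121, 127 and 113 FPKM against 206, 211 and 167 FPKM (-0.69, SE 0.11, adjusted p = 0.00886). Neither gene's fractions overlapped, and both were lower in SUM149 CSC too. NDUFA4L2 was at low level, with 0.438, 0.156 and 0.173 FPKM against 0.537, 0.819 and 0.797 FPKM (-1.27, SE 0.33, adjusted p = 0.0394). Its call was lost without CSC replicate 2 or 3 or any of the non-CSC replicates (adjusted p from 0.0628 to 0.119). Without CSC replicate 1 the count of lower members was 5 (15.3% of all genes tested). That count was 5 with an added constant of 1, 6 with a variance trend and 5 after GC removal. Of all genes tested 16.6%, 16.9% and 16.8% were then lower.

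Complex IV was the lowest in HCC1937, with all 12 genes tested below 0 and a median of -0.28. Complex I had 33 of 37 below 0 (median -0.12), complex III 9 of 9 (-0.12), complex II 4 of 4 (-0.04) and complex V 11 of 17 (-0.11). Over all 79 members the median was -0.12, beside -0.03 for all genes. On the common-sum scale, where every library has the same total, the median of all genes was 0.09 and complexes I, II, III and V turned positive (0.01, 0.08, 0.00 and 0.02), whereas complex IV stayed at -0.15. Relative to all genes the members' medians were then -0.08, -0.01, -0.09, -0.24 and -0.07 for complexes I to V. Under this scale 3 members of complex V were called higher and 3 members lower, a split of 3 to 3 in place of 0 to 3. After quantile normalization 3 were higher and 4 lower. Of all genes tested 14.4% were higher and 11.4% lower on the common sum, and 15.2% and 13.6% after quantile normalization.

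The difference between the lines was taken from the interaction of line and fraction in the 12 sorted libraries. Of the 79 members, 35 had a CSC effect that differed between SUM149 and HCC1937: in 16 the SUM149 effect was above that of HCC1937 (28.1% of all 16451 genes tested) and in 19 it was below (33.0%). The calls covered complexes I (7 above, 9 below), II (1 and 3), III (1 and 1), IV (3 and 3) and V (4 and 3). The strict call took 1 member above (7.12%) and 2 below (10.6%). COX6B2 and COX6A1 were the 2 members called in both lines, 40 were called in SUM149 alone and 1, NDUFA4L2, in HCC1937 alone. Of the 14423 genes tested in both lines the shares were 21.9%, 52.9% and 3.78%.

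The members with the largest changes in SUM149 differed between the lines. NDUFS6 had an interaction of 1.84 (SE 0.21, adjusted p = 3.46e-05), with 371, 274 and 245 FPKM in HCC1937 CSC and 319, 350 and 266 FPKM in non-CSC, which overlapped. NDUFS3 had -1.37 (SE 0.19, adjusted p = 0.000139), SDHA 1.0 (SE 0.12, adjusted p = 5.12e-05) and SDHD -1.49 (SE 0.12, adjusted p = 4.01e-06). SDHD was 31.9, 30.9 and 29.1 FPKM in HCC1937 CSC and 32.9, 32.7 and 28.5 FPKM in non-CSC, close to its level in SUM149 non-CSC. UQCRC1 had an interaction of 0.97 (SE 0.14, adjusted p = 0.000227) and ATP5G2 of 0.84 (SE 0.18, adjusted p = 0.00238). COX6B2 fell in each line but by more in SUM149 (-2.22, SE 0.16, adjusted p = 1.36e-06), and the difference for COX6A1 did not pass (0.10, adjusted p = 0.693). All 35 calls were kept under 3 other scalings, and 34 after removal of the GC trend, where NDUFS8 lost its call. The call of UQCRFS1 (-0.55) was lost without SUM149 CSC replicate 1 or 3, SUM149 non-CSC replicate 1 or HCC1937 non-CSC replicate 3 (adjusted p from 0.0511 to 0.0540), and that of COX7B (-0.62) without SUM149 CSC replicate 1, SUM149 non-CSC replicate 1 or 3 or HCC1937 non-CSC replicate 3 (0.0526 to 0.0537). Those of NDUFS8 (-0.59) and NDUFA4L2 (1.09) were lost in 10 and 9 of 12 such fits (adjusted p from 0.0522 to 0.105 and from 0.0531 to 0.106). NDUFS8 kept its call without HCC1937 CSC replicate 3 or HCC1937 non-CSC replicate 2, and NDUFA4L2 without SUM149 CSC replicate 3, HCC1937 CSC replicate 1 or HCC1937 non-CSC replicate 1.

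The CSC fractions of the sorted lines were compared next, after scaling each library to a common sum. More members were called higher than lower in HCC1937 CSC in every complex: 62 of 79 members were higher, where 42.0% of all 16329 genes tested were, and 7 were lower (32.9%). By the strict call 22 were higher (13.5%) and 1 lower (11.8%). The median was 0.80, beside 0.16 for all genes. Complex I had 31 higher and 3 lower, complex II 3 and 0, complex III 6 and 0, complex IV 10 and 1, and complex V 12 and 3. No called member took the opposite direction under another scaling. Other lists differed as well: epithelial genes had 9 higher and 1 lower of 10, mesenchymal genes 1 and 6 of 8, fibroblast genes 1 and 5 of 7, leukocyte genes 2 and 0 of 2, endothelial genes 1 and 0 of 1, and immediate early and heat shock genes 0 and 9 of 11. Their part in the result was not tested, and the line and the preparation of its libraries could not be told apart.

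ATP5G1 was 178, 148 and 121 FPKM in HCC1937 CSC and 22.9, 28.3 and 25.5 FPKM in SUM149 CSC, a log2 fold change of 2.44 (SE 0.12, adjusted p = 1.46e-05). It made up 51.5% of the c subunit genes' sum in HCC1937 CSC against 15.7% in SUM149 CSC, while ATP5G2 did not pass (-0.11, adjusted p = 0.253). NDUFC1, a small membrane-arm subunit of complex I, was 51.5, 37.4 and 36.8 FPKM against 7.29, 9.70 and 8.58 FPKM (2.19, SE 0.13, adjusted p = 2.75e-05). SDHC was 17.5, 17.2 and 19.1 FPKM in HCC1937 CSC, above every SUM149 library (2.01, SE 0.13, adjusted p = 4.34e-05). UQCRQ of complex III rose by 1.54 (adjusted p = 5.69e-05) and COX6A1 by 1.44 (adjusted p = 3.4e-05). COX7A2L, which helps to assemble complexes III and IV into supercomplexes, went the other way, with 39.9, 35.4 and 31.7 FPKM in HCC1937 CSC and 118, 132 and 127 FPKM in SUM149 CSC (-1.90, SE 0.07, adjusted p = 5.79e-06). NDUFA4L2 (-1.74, adjusted p = 0.0046) and ATP5I (-0.82, adjusted p = 0.00358) were also lower.

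SUM159 was compared with either CSC fraction on the common-sum scale, with caution, since its libraries differed from the others in many ways. Their FPKM summed to 634746 to 652082, against 291276 to 366532 in the sorted libraries, and 8534 to 8670 genes exceeded 1 FPKM, against 11249 to 11997. The median of all genes was accordingly -1.66 against SUM149 CSC and -1.78 against HCC1937 CSC. The line, the lack of sorting and library preparation could not be told apart. Immediate early and heat shock genes, which respond to handling, were lower in SUM159 than in either CSC fraction (11 of 11 each), with a summed level of 550, 586 and 519 FPKM and JUNB the most abundant. In SUM149 6 of the 11 were lower and 4 higher in CSC, with sums of 2475, 2590 and 2478 FPKM in CSC against 2886, 2903 and 2770 FPKM, and FOS the most abundant in CSC. In HCC1937 5 were lower and 1 higher, with sums of 1236, 1111 and 1088 FPKM against 1337, 1366 and 1219 FPKM. Their part in the members' results was not tested.

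Most respiratory genes lay above the median of all genes in SUM159. Against SUM149 CSC 54 members were higher (15.8% of all 15025 genes tested) and 15 lower (72.3%), with a median of 0.62, and 75 of 79 lay above the median of all genes. By the strict call 25 were higher (5.73%) and 6 lower (54.4%). Complex I had 25 higher and 6 lower, complex III 6 and 2, complex IV 11 and 1, and complex V 11 and 3. Complex II had 1 higher and 3 lower with a median of -0.31, which turned positive under upper quartile scaling (1.56), quantile normalization (0.39), the deposited scale (0.78) and after removal of the GC trend (1.88). The split of calls was 75 to 3, 71 to 5, 71 to 5 and 76 to 2 under these alternatives, so that 78.3% higher became 96.2%, 93.4%, 93.4% and 97.4%. Of all genes tested on these scales 42.8%, 44.0%, 31.5% and 42.4% were higher and 44.4%, 41.6%, 55.5% and 43.0% lower. Between 8 and 12 of the 69 called members took the opposite sign. The median of all genes was -0.03, 0.09, -0.76 and -0.01 on those scales.

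A few subunits were lower in SUM159 than most of their complex. All genes tested had a median of -1.66 on the common-sum scale, with a lower quartile of -3.18. Of the falls named here NDUFS1 alone lay under that quartile, and SDHD and ATP5F1 lay above the median. In transcripts with a GC content of 40 to 45%, among them that of NDUFS1, the median of all genes was -3.00. NDUFS1, the core subunit with 3 iron-sulfur clusters, was 1.61, 2.09 and 1.88 FPKM in SUM159 and 12.1, 11.3 and 12 FPKM in SUM149 CSC. The log2 fold change on the common-sum scale was -3.65 (SE 0.12, adjusted p = 2.81e-07). UQCRC2 was 22, 21.7 and 22.2 FPKM against 54.6, 58.6 and 56.8 FPKM (-2.45, SE 0.06, adjusted p = 1.38e-07), although its partner UQCRC1 was 416, 420 and 433 FPKM and higher (0.84, SE 0.07, adjusted p = 2.69e-05). COX6B2 was 1.53, 1.69 and 1.62 FPKM in SUM159 (-1.92, SE 0.08, adjusted p = 7.59e-07), a call that was lost after upper quartile scaling (-0.16, adjusted p = 0.114) and turned under quantile normalization (0.52). The call of UQCRC2 was lost after GC removal (-0.11, adjusted p = 0.138). SDHD (-0.88, adjusted p = 9.3e-05) and ATP5F1, the b subunit of the peripheral stalk (-1.36, adjusted p = 4.75e-06), also turned under other scalings. For SDHD the alternatives gave 0.97, 0.48, 0.20 and 2.35 after upper quartile scaling, quantile normalization, on the deposited scale and after GC removal. ATP5F1 was at 0.50 after upper quartile scaling and 1.48 after GC removal. After quantile normalization ATP5F1 kept its direction but lost its call. The largest rises by complex were ATP5G1 (2.11, adjusted p = 6.49e-07), COX5B (1.88, adjusted p = 1.12e-06), NDUFB7 (1.81, adjusted p = 2.09e-05), UQCRQ (1.37, adjusted p = 8.25e-06) and SDHC (0.93, adjusted p = 0.000329).

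**Figure D4:**
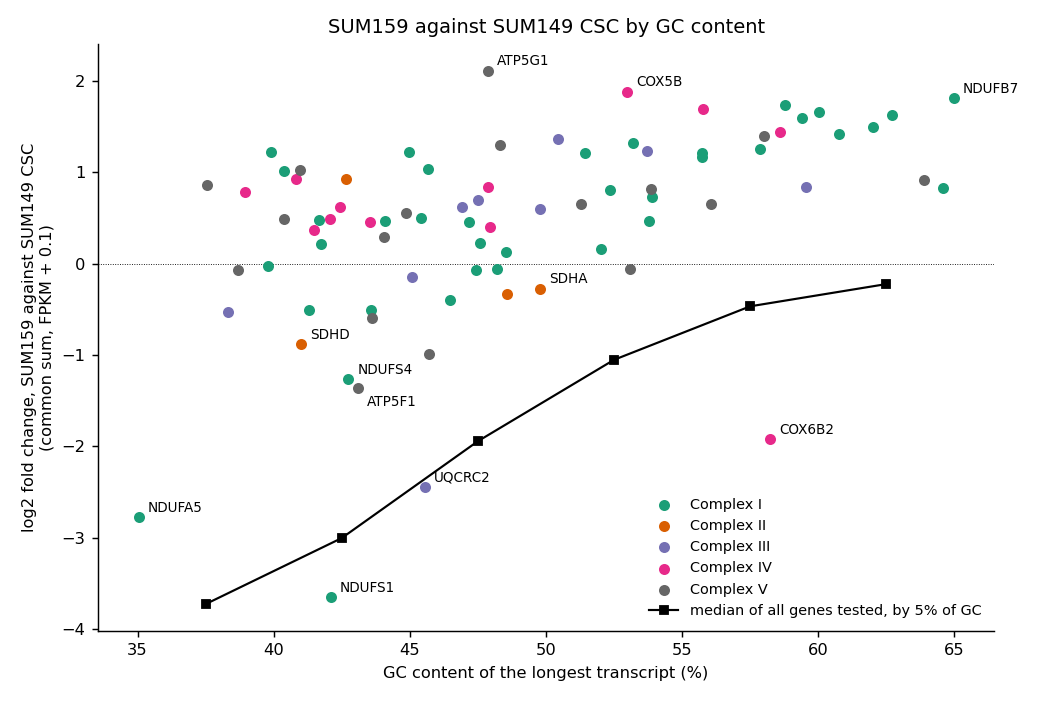
Log2 fold change of SUM159 against SUM149 CSC on the common-sum scale (vertical axis) by the GC content of the longest transcript (horizontal axis, %); points are the 79 members, and the line joins the medians of all genes tested in bins of 5%. The line climbs from -3.72 to -0.22 and the members rise with it; complex II, with a median of -0.31 here, turned positive on the other scales.

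The base composition of the transcripts moved with the SUM159 result. Across genes of the comparison with SUM149 CSC, Spearman's rho between the GC content of the longest transcript and the fold change was 0.60 over 13767 genes and 0.52 over the 79 members, points that share the same 6 libraries. In the sorted comparisons rho over all genes was -0.14 in SUM149 and -0.18 in HCC1937. Members called higher in SUM159 had a median GC content of 50.1%, and those called lower one of 43.6%. In transcripts with a GC content of 35 to 40% the median was -3.72 over all genes and -0.02 over 7 members, and at 60 to 65% it was -0.22 and 1.5. The members thus stood above the other genes at either end. Whether base composition acts through the cells or the libraries was not tested.

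Against HCC1937 CSC the direction of complexes I, II, III and V depended on the scale, and the median of complex IV was positive on each (0.08 on the common sum). On the common sum 25 members were higher (14.4% of all 15492 genes tested) and 39 lower (73.8%), and by the strict call 6 (6.14%) and 14 (54.6%). The median was -0.17, above the -1.78 of all genes. Complex I had 11 higher and 20 lower, complex II 0 and 3, complex III 4 and 4, complex IV 5 and 4, and complex V 5 and 8. The splits became 70 to 6 after upper quartile scaling, 43 to 22 after quantile normalization, 51 to 11 on the deposited scale and 75 to 3 after removal of the GC trend. Of all genes tested 42.1%, 42.8%, 27.5% and 41.6% were then higher and 44.4%, 41.1%, 57.9% and 41.5% lower. The median of all genes was then -0.08, 0.07, -0.97 and 0.00, and 31, 17, 22 and 36 of the 64 called members took the opposite sign. Medians of complexes I, III and V (-0.46, -0.17 and -0.04) were positive on all 4 of these scales, and complex II (-1.11) was positive after upper quartile scaling (0.83) and GC removal (1.37).

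Several genes at the ends kept their direction there. All genes tested had a median of -1.78 and a lower quartile of -3.32, and of the falls named here NDUFS1 alone lay under that quartile. NDUFS1 was lowest again, at -4.39 (SE 0.11, adjusted p = 1.96e-07), from a level of 21.8, 20 and 21.2 FPKM in HCC1937 CSC, and UQCRC2 followed at -2.91 (SE 0.07, adjusted p = 1.76e-07). COX7A2L was 383, 367 and 347 FPKM in SUM159 and higher by 2.35 (SE 0.08, adjusted p = 5.14e-07), and NDUFA4L2 was 3.86, 3.17 and 3.81 FPKM and higher by 2.57 (SE 0.28, adjusted p = 0.00015). ATP5D, the delta subunit of the head, was higher by 1.5 (adjusted p = 4.53e-06) and UQCRC1 by 0.81 (adjusted p = 6.73e-05). The falls of ATP5F1 (-2.74, adjusted p = 2.56e-07), SDHD (-2.16, adjusted p = 1.04e-06) and COX6B2 (-2.11, adjusted p = 4.18e-06) were scale-dependent: GC removal gave 0.24 for ATP5F1 and 1.18 for SDHD, and quantile normalization gave 0.38 for COX6B2, which lost its call after upper quartile scaling (-0.26, adjusted p = 0.0618), as did SDHD (-0.22, adjusted p = 0.0515).

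**Figure D5:**
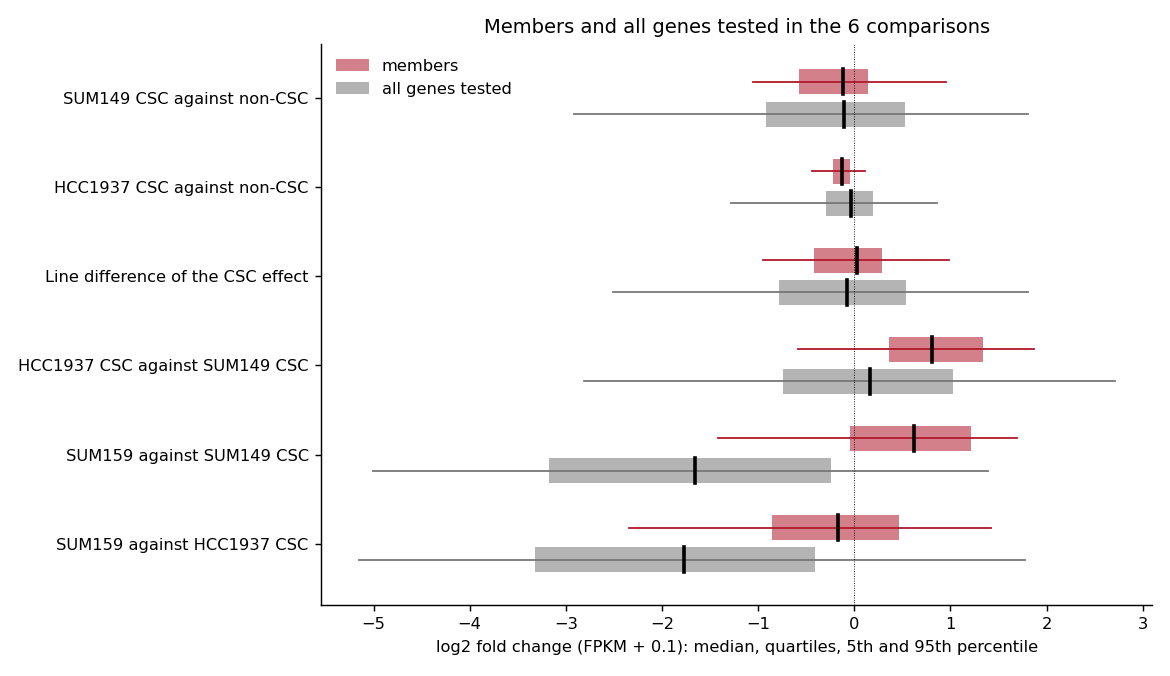
Log2 fold changes (horizontal axis) of the 79 members and of all genes tested in the 6 comparisons; boxes are quartiles, black bars medians and lines the 5th to 95th percentile. Members spread less than all genes in each comparison, and their median was 0.80 beside 0.16 in HCC1937 CSC against SUM149 CSC and 0.62 beside -1.66 in SUM159 against SUM149 CSC; against HCC1937 CSC the sign of the members' median of -0.17 depended on the scale.

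Lists of genes that serve the chain were counted beside the members in SUM149, where 33.3% of all genes tested were higher and 41.5% lower. Of 43 assembly factors, which build the complexes, 9 were higher and 24 lower in CSC (median -0.38), with NUBPL at 1.58 (adjusted p = 0.0002), NDUFAF2 at 1.37 (adjusted p = 0.000364) and NDUFAF5 at -1.33 (adjusted p = 4.68e-05), all 3 needed for complex I. Of 11 electron carriers and related genes 3 were higher and 5 lower, and SLC25A4, an ATP/ADP carrier, fell by 1.46 (adjusted p = 8.93e-06). Genes of the TCA cycle had 3 higher and 6 lower of 17, among them DLAT of the pyruvate dehydrogenase complex at -1.75 (adjusted p = 2.03e-05). Regulators of mitochondrial biogenesis had 6 higher and 4 lower of 13. The largest called changes were those of MYC at 1.72 (adjusted p = 4.27e-06), TFB1M at 1.19 (adjusted p = 3.81e-05) and PPARGC1A, the coactivator PGC-1alpha, at 1.10 (adjusted p = 0.000133). Genes used as measures of mitochondrial mass had 5 higher and 5 lower of 14. Mitochondrial ribosomal proteins were as balanced, with 25 higher and 27 lower of 75 (median -0.05), whereas cytosolic ribosomal proteins had 59 higher and 5 lower of 81 (median 0.77). In HCC1937, where 10.3% of all genes tested were higher and 15.3% lower, the counts were 1 higher and 2 lower for assembly factors, 0 and 1 for carriers, 0 and 1 for the TCA cycle, 0 and 1 for regulators, 2 and 1 for mass, 2 and 0 for mitochondrial and 1 and 0 for cytosolic ribosomal proteins.

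Between lines the neighboring lists did not follow the members throughout. In HCC1937 CSC against SUM149 CSC, where 42.0% of all genes tested were higher and 32.9% lower, assembly factors had 23 higher and 8 lower of 43. Mitochondrial ribosomal proteins had 45 and 12 of 75, electron carriers 7 and 0 of 11, genes of the TCA cycle 12 and 3 of 17 and those of mitochondrial mass 11 and 1 of 14. Regulators of biogenesis had 1 higher and 9 lower of 13, and cytosolic ribosomal proteins 10 and 49 of 80. In SUM159 against SUM149 CSC, where 15.8% of all genes tested were higher and 72.3% lower, 12 of 43 assembly factors were higher and 26 lower on the common-sum scale (median -0.90), below the members' median of 0.62 and above the -1.66 of all genes. Cytosolic ribosomal proteins had 55 higher and 13 lower (median 0.88) and mitochondrial ribosomal proteins 34 and 29 (median 0.12), while regulators of biogenesis had 1 and 11 (median -2.95), genes of the TCA cycle 6 and 11 (-0.69) and those of mitochondrial mass 4 and 10 (-1.37). Electron carriers and related genes had 6 higher and 3 lower of 11 there (median 0.16). Among them CYC1, the cytochrome c1 of complex III, was higher by 2.08 (adjusted p = 7.07e-07) and CYCS, cytochrome c, was at -3.16 (adjusted p = 9.81e-08), both on the common-sum scale.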

How the data were processed

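The deposited table held FPKM values, made by the authors from oligo(dT)-selected mRNA aligned with Bowtie2 to GRCh38 per the labels; the quantification tool and the depth were not given in the sources used here. All 15 libraries were used, in 5 groups of 3. Values were analysed as log2(FPKM + 0.1) for genes averaging 0.1 FPKM or more over the libraries compared. Comparisons across lines used each library rescaled to a common sum. Tests were limma (3.58.1, R 4.3.3) moderated t-tests with Benjamini-Hochberg adjustment over all genes tested, and a call was an adjusted p of at most 0.05. The line difference was an interaction term over 12 libraries. The pipeline was tested on simulated data. Other scalings, a larger added constant, a trend in the variance, each library left out and a replicate block were tried, and removal of a smooth GC trend was added after the values were seen.

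The members and lists were chosen with earlier results of these data known. The single values of 1 member are not reported here. Genes named are the largest called rise and fall of each complex in each comparison, catalytic core subunits, all of complex II, paralogs and tissue isoforms, and up to 3 largest changes of each related list. Role groups within complexes were set after the values were seen. Gene positions and GC content came from GENCODE release 29, found for 25476 genes of the table (76.8%). Python 3.11.15, pandas 2.3.3, numpy 2.4.6 and matplotlib 3.10.9 were used for tables and figures.

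Limits: with 3 libraries per group, not stated to be separate cultures, p-values do not measure variation between cultures. Messenger RNA is not protein, and no protein or activity was analysed here. Subunits encoded by mitochondrial DNA were not analysed here. Paralogs, pseudogene copies and overlapping genes may share reads. SUM159 differed from the other lines in line, sorting and library composition at once.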

Additional observations from a re-analysis of the deposited data

Results flagged for a closer look

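The CSC effect differed between SUM149 and HCC1937 in 35 members, which was tested as an interaction. The differences below, for the genes that the naming rule covers, are the log2 fold change in SUM149 minus that in HCC1937, with adjusted p. In complex I they were 1.84 for NDUFS6 (3.46e-05), -1.37 for NDUFS3 (0.000139), 0.98 for NDUFA4 (0.000724), -0.64 for NDUFV1 (0.00458), -0.59 for NDUFS8 (0.0474) and 1.09 for NDUFA4L2 (0.0480). In complex II they were 1.0 for SDHA (5.12e-05), -0.69 for SDHB (0.00539), -0.45 for SDHC (0.00559) and -1.49 for SDHD (4.01e-06). In complex III they were 0.97 for UQCRC1 (0.000227) and -0.55 for UQCRFS1 (0.0227). In complex IV they were -2.22 for COX6B2 (1.36e-06), 0.84 for COX7C (0.00793), 0.57 for COX7A2 (0.0117), 0.53 for COX4I1 (0.0184), -0.47 for COX5A (0.0126) and -0.62 for COX7B (0.0224). In complex V they were 0.84 for ATP5G2 (0.00238), -0.92 for ATP5G3 (0.000718), -1.21 for ATP5S (0.00723) and 0.74 for ATP5SL (0.000714). Whether line, culture or library preparation lies behind these differences was not tested.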

How the results depend on the processing

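Without single libraries, the members called higher and lower ranged from 11 to 15 and 25 to 34 in SUM149, 0 to 0 and 2 to 5 in HCC1937 (5 without CSC replicate 1), 11 to 20 and 16 to 21 for the line difference, 59 to 62 and 7 to 8 for HCC1937 CSC against SUM149 CSC, 54 to 55 and 14 to 15 for SUM159 against SUM149 CSC, and 22 to 25 and 38 to 39 against HCC1937 CSC. Residuals of CSC and non-CSC libraries with the same replicate number correlated at 0.143, 0.0223 and 0.130 in SUM149. In HCC1937 the values were -0.130, -0.0510 and -0.0280. SUM149 replicates 1 and 3 correlated best with their own number, but SUM149 replicate 2 and the HCC1937 replicates did not. The main fits did not pair samples by number. With replicate number as a block the counts were 12 and 25, 0 and 4, 14 and 17, 58 and 7, 53 and 15, and 24 and 38. The shares of all genes tested were then 31.8% and 39.9%, 7.45% and 12.2%, 27.0% and 31.7%, 39.6% and 31.0%, 15.5% and 72.0%, and 14.1% and 73.5%.

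In SUM149 the count higher became 21 with upper quartile scaling and 23 with quantile normalization. In HCC1937 the count higher became 3 with quantile normalization and 3 on the common sum, and the count lower 5 with an added constant of 1, 6 with a variance trend and 5 after GC removal (16.6%, 16.9% and 16.8% of all genes), an alternative chosen after the data were seen. For SUM159 against SUM149 CSC the count lower became 3, 5, 5 and 2 (upper quartile, quantile, as deposited, GC removal). SDHD turned to 0.97, 0.48, 0.20 and 2.35 in that order, ATP5F1 to 0.50 (upper quartile) and 1.48 (GC removal) and COX6B2 to 0.52 (quantile). Against HCC1937 CSC the counts higher became 70, 43, 51 and 75 and lower 6, 22, 11 and 3. COX6B2 turned to 0.38 (quantile), and SDHD to 1.18 and ATP5F1 to 0.24 (GC removal). The cause was not tested. Over all alternatives for the named genes, 2393 values kept call and direction, 36 gained a call, 68 lost it and 10 reversed. Unknown depth limits what can be said of members below 1 FPKM.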
